A study of Mus musculus and Homo sapiens with 10 samples.

Results

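The 720 windows described here are the stretches of 1 kb on human chromosomes 1 to 22 (GRCh37) that collected most DNA break ends in TK6 cells treated with etoposide. They were chosen by measured values: a window had to hold at least 92 break ends in etoposide replicate 1, at least 132 in etoposide replicate 2 and under 100 in DMSO replicate 1. They are 720 of 2309862 autosomal windows with a break end in any TK6 library, or 0.0312%. What the rule used (the counts of both etoposide libraries, and the ceiling on DMSO replicate 1) is given as a description without a test. DMSO replicate 2, and where in a window the break ends lay, were not used to choose them.

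Break ends were mapped by sBLISS, a method that ligates an adapter onto double-strand break ends in fixed cells or nuclei in suspension, so that each sequenced end marks a position. TK6, an established human lymphoblastoid line, was treated with etoposide (2 libraries) or with its vehicle DMSO (2 libraries). The labels used here give neither dose nor time, and do not state if replicate libraries are separate cultures, so their spread may be technical. The series also holds mouse enterocyte libraries, which were not used here.

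Etoposide acts on type II topoisomerases, enzymes that pass one DNA duplex through a temporary cut in another and so relieve twist and tangles during transcription, replication and chromosome folding. The drug slows resealing of that cut and leaves the enzyme bound to the broken ends. In other human cells such cuts have been mapped near gene starts and at the anchors of chromatin loops. No human annotation or genome sequence was used here, so the windows are named by position alone and no gene or sequence is attached to them.

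The etoposide libraries held 11254353 and 8807304 autosomal break ends, and the DMSO libraries 1059728 and 574645. Levels below are break ends per 1000000 autosomal break ends of the library (EPM), so they give the share of a library and not breaks per cell. The number of cells behind a library is not stated. The libraries numbered 2 were more concentrated in these windows than those numbered 1 in both groups: the 720 windows held 0.769% and 1.45% of the break ends after etoposide, and 0.597% and 1.17% in DMSO. Both groups therefore overlap in this share, and values are given per library.

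The windows were dense in every library, vehicle included. After etoposide they held a median of 112 break ends in replicate 1 (lowest 92, highest 481) and 163 in replicate 2 (lowest 132, highest 558). In DMSO the median was 8 in replicate 1 (lowest 0, highest 46) and 9 in replicate 2 (lowest 1, highest 39). Spread evenly over all windows, a window would hold 4.87 and 3.81 break ends after etoposide, and 0.459 and 0.249 in DMSO.

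Breaks in vehicle-treated cells were thus measured in the same places. DMSO replicate 2, the library outside the rule, had 6729 break ends in the 720 windows, 37.6 times an even spread (exact Poisson 95% interval 36.7 to 38.5, counting error only). All 720 windows held at least 1 of its break ends, against 17.4% of all windows. In DMSO replicate 1, whose count the rule capped, the density was 19.2 times an even spread, and 718 of the 720 windows held a break end. The etoposide libraries, which chose the windows, stood at 24.7 and 46.4 times.

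Relative to the rest of each library, the windows were little denser after etoposide than with vehicle. Compared within a replicate number, the share of break ends in them was 1.29 times (replicate 1) and 1.24 times (replicate 2) that in DMSO, although the unscaled counts were 13.7 and 18.9 times as high. Etoposide libraries are larger in all windows together, by 10.6 and 15.3 times. Because a choice on high etoposide counts by itself raises this ratio, windows were also chosen on 1 etoposide library and measured in the pair with the other number. The ratio was then 1.25 in replicate 1 (999 windows chosen on etoposide replicate 2) and 1.203 in replicate 2 (988 windows chosen on etoposide replicate 1), both still under the ceiling on DMSO replicate 1.

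The ratio depended on how break ends piled up on single bases. With each position counted once it was 0.884 and 0.782, below 1, in libraries whose depth differs by over 10 times. With each etoposide library thinned to the depth of its equally numbered DMSO library it was 1.26 and 1.25 with all break ends, and 1.19 and 1.19 with each position counted once. In the windows chosen on the other etoposide library, the ratio with each position counted once was 0.884 and 0.785, and at equal depth it was 1.24 and 1.22 with all break ends and 1.17 and 1.16 with each position counted once. Equal-depth values were thus above 1 also where the measured etoposide library had not chosen the windows, with the ceiling on DMSO replicate 1 kept. That ceiling limits the DMSO count in the replicate 1 ratio and also keeps out windows dense in DMSO replicate 2, so neither ratio is independent of the rule. The 8 windows that met both etoposide minimums but not the ceiling held 115 to 4174 break ends each in DMSO replicate 1. All 720 members together held 6330. In DMSO replicate 2 these 8 windows held 28 to 566 each, and the 720 members together 6729. The one highest in DMSO, on chromosome 17 from 33478001, had 6091 and 2088 after etoposide and 4174 and 566 in DMSO. Each of the 8 took a larger share of the DMSO library than of the etoposide library of its number. Both ratios would therefore be lower without the ceiling, and their values without it were not computed.

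**Figure D1:**
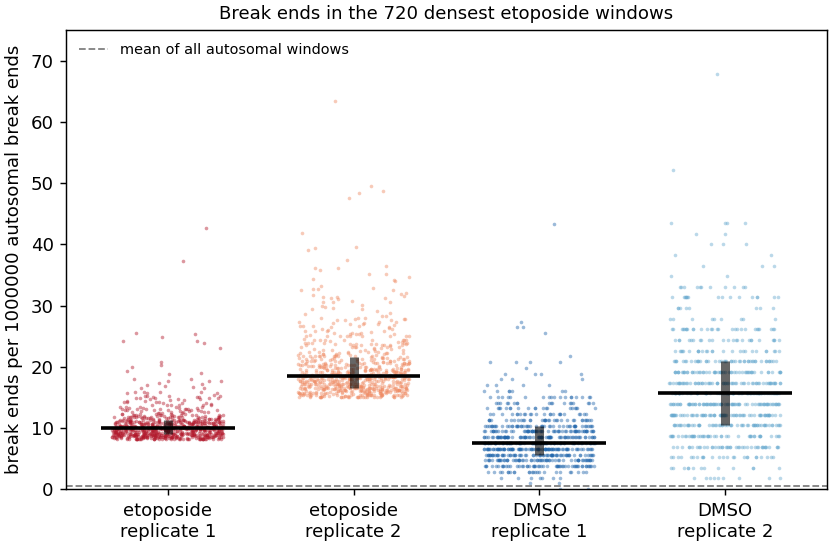
Break ends per 1000000 autosomal break ends (vertical axis) in each of the 720 windows (points) in both etoposide and both DMSO libraries, with the median (horizontal bar), the middle 50% of windows (vertical bar) and the mean of all autosomal windows (dashed line, 0.433). The medians of all 4 libraries lie far above that mean, and in each group the median of replicate 2 lies above that of replicate 1.

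The fit across 1 kb windows (edgeR, quasi-likelihood, with p adjusted by Benjamini-Hochberg to under 0.05) called 0 of 720 members higher and 0 lower. Of all 92980 windows tested, 0% were called higher and 0.0118% lower (11 windows, 6033 at an unadjusted p under 0.05; DESeq2 called 0 higher and 23 lower). The rule read this contrast, so nothing is taken from the members' count. Their median log2 fold change was 0.37, beside 0.18 over all windows tested, and library size scaling without TMM moved these medians to 0.23 and 0.04. The order of the pair depended on the setting: the members' median was 0.59 against 0.68 over all windows without DMSO replicate 1, 0.86 against 0.46 without DMSO replicate 2, 2.02 against 2.12 without a filter, and -0.0852 against 0.15 with each position counted once. The windows tested in these settings were 281462, 272424, 2309862 and 76979, so the medians over all windows are of different sets. All 720 members were tested in each.

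The window with the highest mean level after etoposide was on chromosome 17, 41466001 to 41467000. It held 419 and 558 break ends in the etoposide libraries, against 21 and 15 in the DMSO libraries. These are 37.2 and 63.4 EPM after etoposide and 19.8 and 26.1 EPM in DMSO, so that each etoposide library lay above the DMSO library of its number.

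Of the 10 windows highest by mean level, 4 lay on chromosome 20. The window from 34542001 had 288 and 436 break ends after etoposide, against 14 and 30 in DMSO. The window from 30945001 had 273 and 426 against 19 and 39, and its 39 were the most of any member in DMSO replicate 2. In EPM this made 24.3 and 48.4 after etoposide and 17.9 and 67.9 in DMSO, so that DMSO replicate 2 was the highest of the 4 libraries there. The window next in DMSO replicate 2 was the one from 34542001, with 30. A window on chromosome 1 from 183605001, with 172 and 283 break ends after etoposide and 10 and 25 in DMSO, was tied at 25 with windows on chromosome 4 from 122722001, chromosome 14 from 60559001 and chromosome 19 from 49588001.

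The chromosome 20 window from 44600001 had 233 and 429 break ends after etoposide, against 16 and 19 in DMSO, and that from 35402001 had 272 and 318 against 28 and 19. On chromosome 5, the window from 43042001 had 279 and 419 after etoposide and 22 and 19 in DMSO. These windows had more break ends in etoposide replicate 2 than in replicate 1, although the library of replicate 2 is the smaller. The rule set a higher minimum in etoposide replicate 2 than in replicate 1, so this order is favoured by the choice of windows. The medians over all members had the same order, so it does not set these windows apart.

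On chromosome 3, the window from 183903001 had 259 and 368 break ends after etoposide and 29 and 24 in DMSO. In EPM its libraries overlapped, with 23.01 and 41.8 after etoposide and 27.4 and 41.8 in DMSO. Chromosome 13 contributed the windows from 50018001, with 228 and 347 after etoposide and 4 and 18 in DMSO, and from 103451001, with 213 and 349 against 12 and 14.

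The remaining window of the 10, on chromosome 6 from 58777001, went against the others. It had 481 and 143 break ends after etoposide, against 46 and 15 in DMSO. Its level in etoposide replicate 2 was 0.380 times that in replicate 1, the lowest of the 720, where the median was 1.896 times. The minimums of 92 and 132 break ends are 8.17 and 15.0 EPM, so a median above 1 is favoured by the rule. The window that follows it, from 58778001, had 995 and 267 after etoposide and 115 and 28 in DMSO, and was kept out by the ceiling on DMSO replicate 1.

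The minimums cut through a continuous range of values. Just inside were the windows on chromosome 6 from 13615001 (92 and 134 break ends after etoposide), on chromosome 17 from 35849001 (92 and 134) and on chromosome 3 from 183602001 (94 and 132). Just outside were those on chromosome 19 from 38865001 (92 and 131), on chromosome 17 from 42767001 (93 and 131) and on chromosome 6 from 31940001 (94 and 131).

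Members with more break ends after etoposide also had more in DMSO replicate 2. Ranked by etoposide replicate 1 and split into 4 groups of 180, DMSO replicate 2 averaged 7.83 break ends in the lowest group (exact Poisson 95% interval 7.43 to 8.25, counting error only), then 8.42, 8.83 and 12.3 in the highest (11.8 to 12.8). Etoposide replicate 2 averaged 151, 159, 172 and 226 in the same groups. A window has the same mappability in all libraries, and its copy number may be shared too. Neither was separated here.

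Break density fell steeply outside the windows. In the windows at 1 kb on either side it was 7.41 and 12.5 times an even spread after etoposide, and 6.63 and 11.7 times in DMSO. At 2 kb it was 3.12 and 4.28 times after etoposide and 3.04 and 4.18 times in DMSO. From about 4 kb on it levelled off, and at 10 kb it was 2.15 and 2.89 times after etoposide and 1.85 and 2.44 times in DMSO.

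The wider surroundings stayed above the average of the genome. At 100 kb from a member the density was 1.85 and 2.43 times an even spread after etoposide and 1.63 and 1.98 times in DMSO, and at 1000 kb it was 1.48 and 1.83 against 1.37 and 1.60 times. The flanks were not read by the rule, except where they are members themselves. Among the 617 members with no other member within 20 kb, the mean over the etoposide libraries at 1 kb was 8.72 ± 2.99 times (SD, n = 2), beside 9.93 ± 3.56 times for all 720.

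**Figure D2:**
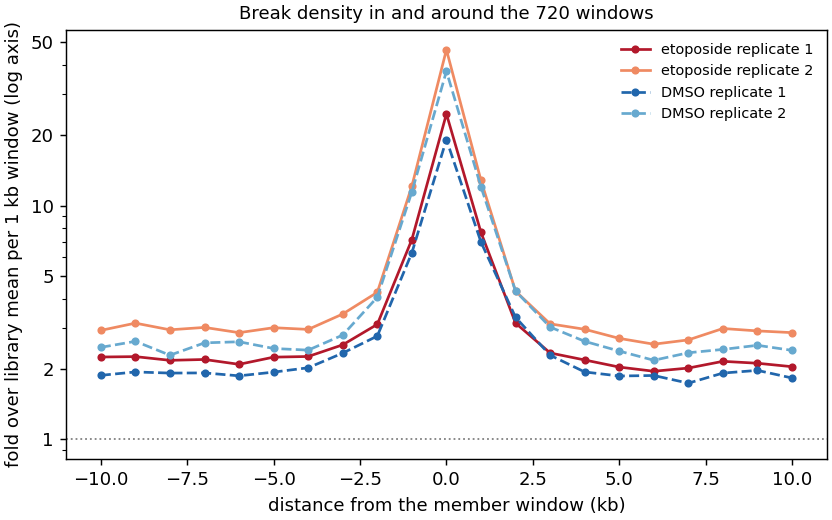
Mean break density in the member windows (0) and in windows 1 to 10 kb away on either side, as fold over the library's mean per 1 kb window (log axis; dotted line, 1), for each etoposide library (solid) and each DMSO library (dashed). All 4 libraries peak in the window and stay between 1.74 and 3.14 times the mean from 4 kb on.

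Within the windows the break ends were unevenly spread. The densest 100 bp of a window held a median of 36.7% of its break ends in etoposide replicate 1 (lowest 17.4%, highest 91.7%) and 38.1% in replicate 2 (lowest 19.9%, highest 90.9%). The shortest stretch with 50% of the break ends had a median length of 210.5 bp and 199 bp. With every window thinned to 90 break ends these lengths were 205 and 186.5 bp. In the middle 50% of windows the stretch was 115 to 283 bp long in replicate 1 and 112 to 279 bp in replicate 2, so that a core much shorter than the window held as many break ends as the rest of it.

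Since the densest stretch of any window exceeds the even share of 10%, the stretch was chosen in 1 etoposide library and measured in the other. It then held a median of 34.6% in replicate 1 and 36.2% in replicate 2, and over 10% in both libraries in 720 of 720 windows. The stretches chosen in the 2 libraries overlapped in 610 windows (84.7%). The share of a window in one library went with that in the other (Spearman 0.90 over 720 windows, which share sequence and genome position).

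The core held finer structure. The single position with most break ends held a median of 7.56% of a window's break ends in etoposide replicate 1 and 7.71% in replicate 2. It was the same base in both libraries in 321 windows (44.6%), and within 5 bp in 446. Break ends lay at a median of 73 and 91.5 distinct positions per window.

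Centred on the core, the mean density within 10 bp of the centre was 231 and 460 times the library's mean per base in the etoposide libraries, and 121 and 270 times in the DMSO libraries. At 51 to 100 bp it was 23.5 and 44.0 times after etoposide and 21.3 and 42.5 times in DMSO. At 101 to 200 bp it was 21.6 and 41.0 times, against 18.8 and 35.0 times in DMSO, and at 401 to 500 bp 14.1 and 25.8 times, against 11.8 and 21.2 times. The profile was a narrow spike on a broad shoulder in every library, and within each replicate number the spike was lower in DMSO. The centres were chosen in etoposide libraries, in windows chosen for high etoposide counts, so the direction of this difference is not independent of the choice. The profile was not computed with each position counted once or at equal depth.

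**Figure D3:**
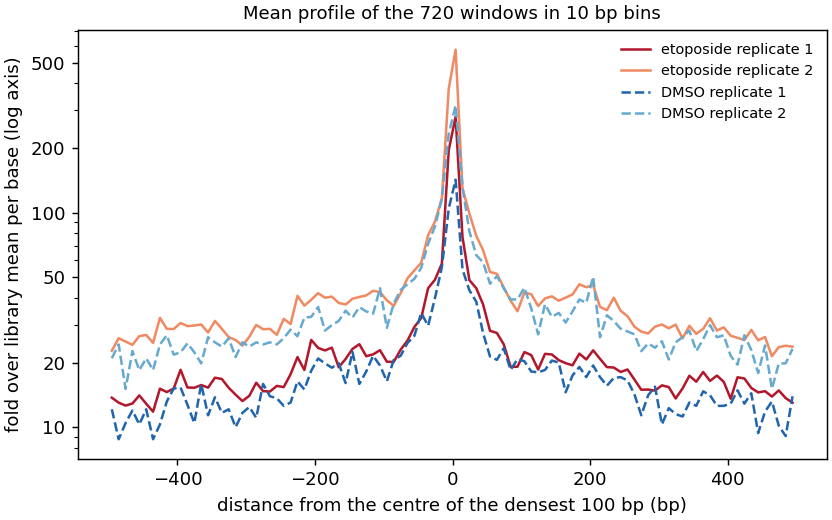
Mean break density around the centre of the densest 100 bp, in 10 bp bins, as fold over the library's mean per base (log axis), with the centre chosen in the other etoposide library for etoposide (solid) and in each etoposide library in turn for DMSO (dashed). The spike at 0 bp stands on a shoulder that lies between 21.3 and 44.0 times at 51 to 100 bp and between 11.8 and 25.8 times at 401 to 500 bp.

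Shapes differed among the windows. In 108 of 720 windows the stretch chosen in the other library held over 50% of the break ends in both etoposide libraries, and in 90 it held under 25% in both. A further stretch of 100 bp, at least 100 bp away, held at least 50% as many break ends as the first in both libraries in 270 windows, and under 25% as many in 129.

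The narrowest member by this share was on chromosome 1, 226796001 to 226797000, with 129 and 202 break ends after etoposide, against 7 and 6 in DMSO. Position 226796669 alone held 52 and 102 of them. The stretch chosen in the other library held 87.6% and 89.6% of the etoposide break ends, and 5 of the 6 in DMSO replicate 2 lay in it.

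The chromosome 1 window from 28585001 had 218 and 330 break ends after etoposide, against 19 and 22 in DMSO, with 87.2% and 89.1% in the stretch after etoposide. Of its 22 break ends in DMSO replicate 2, 20 lay in the stretch. On chromosome 6, the window from 86353001 had 121 and 249 after etoposide and 15 and 12 in DMSO, with 90.1% and 85.9% in the stretch. All 12 of DMSO replicate 2 and 14 of the 15 of DMSO replicate 1 lay there, so that in these windows vehicle and etoposide breaks fell within the same 100 bp.

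Lowest by share in the stretch chosen in the other library were members on chromosome 3 from 195634001 (15.0% and 10.8%), chromosome 7 from 23145001 (14.0% and 15.1%) and chromosome 1 from 46016001 (15.3% and 13.9%). In each, the etoposide libraries chose stretches that did not overlap, so a low share need not mean an even spread. The shortest stretch with 50% of the break ends was 265 and 409 bp, 439 and 367 bp, and 279 and 328 bp in these windows. The window on chromosome 3 had 107 and 157 break ends after etoposide, against 13 and 5 in DMSO, and none of the 5 in DMSO replicate 2 lay in either stretch. Its densest positions held 5 and 7 break ends.

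**Figure D4:**
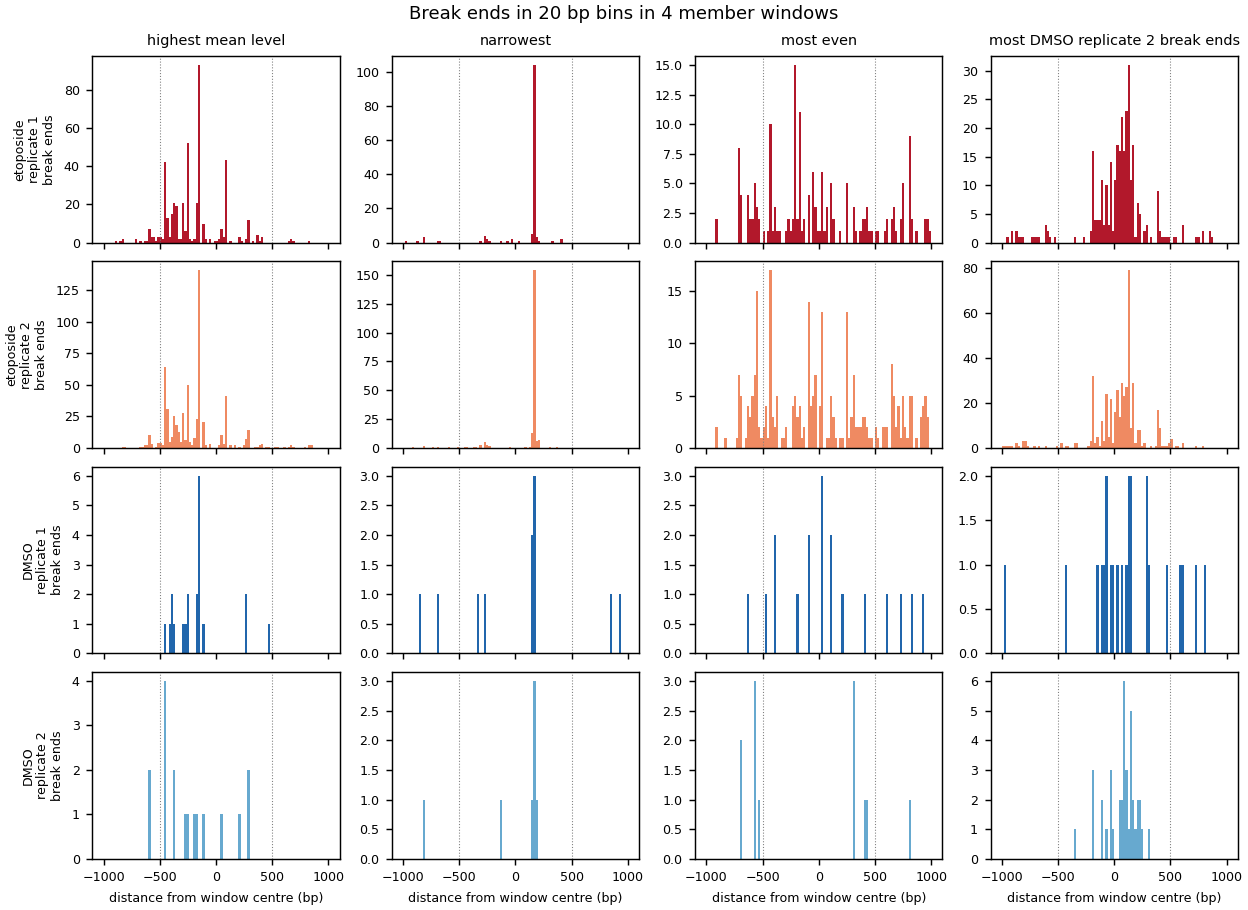
Break ends in 20 bp bins (vertical axis, own scale in each panel, from 0) against distance from the window's centre (horizontal axis; dotted lines mark the window's edges) in 4 members, by library from etoposide replicate 1 (top) to DMSO replicate 2 (bottom). The members are those with the highest mean level (419 and 558 break ends after etoposide), the highest and the lowest share in the stretch, and most break ends in DMSO replicate 2 (39).

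Vehicle breaks were concentrated in the same stretches, somewhat less than etoposide breaks. Over all 720 windows the 100 bp chosen in the other etoposide library held 37.6% (replicate 1) and 38.7% (replicate 2) of the break ends after etoposide. The same stretches held 30.8% and 33.8% of the break ends in DMSO, averaged over both choices, where an even spread gives 10%. For DMSO replicate 2, the stretch chosen in etoposide replicate 1 held 2251 of 6729 (33.5%, exact binomial 95% interval 32.3 to 34.6, counting error only).

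Etoposide libraries were above DMSO libraries without overlap, by 5.82 percentage points between the means (38.1 ± 0.820 and 32.3 ± 2.10, SD, n = 2 each). The exact two-sided permutation p was 0.333, the smallest that 2 libraries against 2 can give, so no threshold of 0.05 could be passed. The windows were chosen for high etoposide counts and the stretches in etoposide libraries alone, so the direction of this difference is not independent of the choice. With each position counted once the difference was -3.64 percentage points, and with the etoposide libraries thinned to DMSO depth and each position counted once the shares were 35.1% and 35.6%, against 29.7% and 32.0% in DMSO.

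Many vehicle breaks fell on the same base as an etoposide break. Of 6354 positions with a break end in DMSO replicate 2, 35.2% were also positions of etoposide replicate 1 and 41.3% of etoposide replicate 2, although those libraries covered only 7.42% and 9.32% of the bases in the windows. Of 6012 positions in DMSO replicate 1, 32.3% and 36.1% were shared. Over all autosomes the shares were 7.72% and 8.55% for DMSO replicate 2 and 4.89% and 4.86% for DMSO replicate 1. The windows were chosen for high etoposide counts, so the higher share in them is not independent of the choice. An average autosomal window held 4.87 and 3.81 etoposide break ends, and so at most that many etoposide positions. In members the medians were 73 and 91.5 positions. Relative to the bases covered, sharing was therefore not higher in the members than over all autosomes. The position densest in etoposide replicate 2 held 4.44% of the break ends of DMSO replicate 2 and 3.18% of those of DMSO replicate 1, against 7.01% in etoposide replicate 1.

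The members were compared with 6441 windows of the next tier, which had at least 46 and 66 break ends in the etoposide libraries but were under at least one of the full minimums (same ceiling). DMSO replicate 2 had 9.35 break ends per member and 4.61 per window of the next tier, and the etoposide share over the DMSO share was 1.30 and 1.30 there, beside 1.29 and 1.24 in members. With the stretch chosen from 46 break ends in both sets, it held 35.6% and 37.1% of the etoposide break ends in members and 32.0% and 33.2% in the next tier. In DMSO replicate 2, with the stretch chosen in etoposide replicate 1, it held 32.4% in members and 28.8% in the next tier. The share was higher in members in each library. Windows are not replicates, so no test is given.

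Most members stood alone. Another member lay within 10 kb for 86 of 720 (11.9%), within 100 kb for 216 (30.0%), and the median distance to the nearest member was 318 kb. Joined over gaps of up to 10 kb, the members formed 676 runs, of which 634 were single windows, 40 were pairs and 2 held 3 members. Of the 40 pairs, 31 were touching windows.

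Both runs of 3 lay near the end of the long arm of chromosome 20. The run from 62099001 to 62115000 held windows with 122 and 165, 93 and 143, and 123 and 181 break ends after etoposide, against 10 and 3, 3 and 7, and 4 and 2 in DMSO. The run from 61152001 to 61164000 held 96 and 152, 136 and 180, and 103 and 154, against 2 and 2, 9 and 12, and 8 and 10. Among the 40 pairs, the one with most break ends after etoposide was the touching pair from 44600001 to 44602000 on the same chromosome, whose second window had 125 and 189 after etoposide and 12 and 10 in DMSO.

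Close neighbours were nevertheless far more often dense than windows at large. Of the windows touching a member, 4.31% were members and 18.4% were of the next tier, against 0.0312% and 0.279% of all windows. At 2 kb the shares were 0.421% and 3.86%, at 3 to 10 kb 0.179% and 2.06%, and at 101 to 1000 kb 0.118% and 1.10%. The cores of the 31 touching pairs lay a median of 662 bp apart (lowest 124, highest 1341.5), with 2 pairs under 200 bp and 21 over 500 bp apart.

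**Figure D5:**
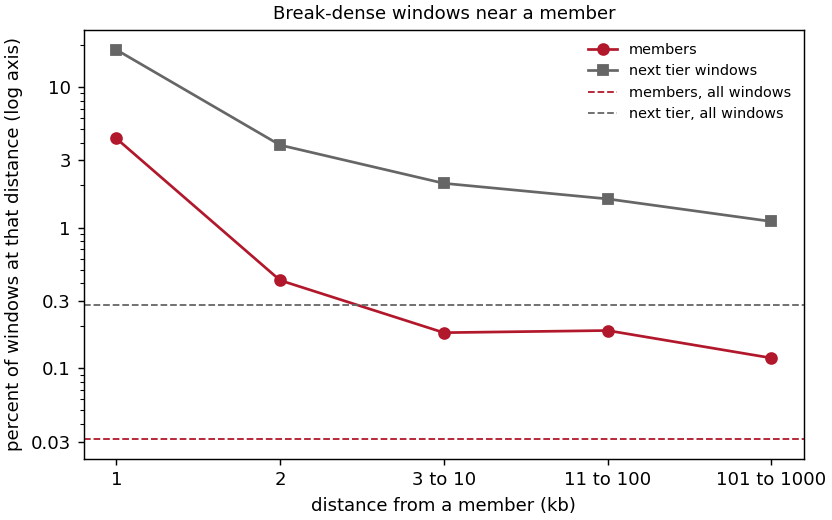
Percent of the windows at a given distance from a member (horizontal axis, kb) that are members (circles) or of the next tier (squares), on a log axis, with the shares among all windows as dashed lines (0.0312% and 0.279%). Both shares fall steeply between 1 and 3 kb and stay above the dashed lines up to 1000 kb.

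Chromosomes differed in how many members they held relative to their etoposide break ends. Chromosome 20 held 72 of 720 (10%) with 4.39 ± 0.343% of the break ends after etoposide (SD, n = 2), a ratio of 2.28, and chromosome 3 held 79 (10.97%) with 6.17 ± 0.650%, a ratio of 1.78. Chromosome 13, with 43 members, was at 1.78. Members on chromosomes 20 and 3 were not spread over the whole chromosome. On chromosome 20, all but those from 10653001, 24973001 and 25604001 started at 30539001 or beyond. On chromosome 3, most started at 120067001 or beyond, and none lay between 72898000 and 120067001. Gene-rich chromosomes 19 and 22, with 38 and 23 members, were at 1.15 and 1.01, so their members matched their share of break ends. These break ends come from the libraries that chose the windows. Relative to a chromosome's share of all windows the order differed. Chromosome 20 was then at 4.14, chromosomes 19, 17, 22 and 16 at 2.39, 2.34, 2.33 and 1.88, and chromosomes 13 and 3 at 1.60 and 1.48.

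At the low end, chromosome 18 held 2 members, 0.137 times its share of break ends, chromosome 21 held 5 (0.447 times) and chromosome 10 held 16 (0.453 times). By share of all windows the lowest were chromosomes 18, 4 and 8, at 0.0992, 0.313 and 0.391. Copy number was not measured here. A fixed minimum of break ends is met more easily by a chromosome present in more copies, and this was not separated from density per copy.

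The set itself depended on how break ends were counted and where windows were drawn. With each position counted once 26 windows met the same limits, all of them members, and with both minimums multiplied by 1.2 the number was 296. With the grid shifted by 500 bp it was 680, and 434 of these overlapped a member.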

How the data were processed

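Positions and whole-number counts of break ends in 4 TK6 libraries were taken from the deposited files, one library each, not normalized and without strand. Reads were aligned with BWA to GRCh37, per the submitters' processing notes; the sources used here do not give version, mapping filters, duplicate handling, or whether counts are of molecular identifiers or reads. PCR reads without identifiers are not independent, so intervals cover counting error only. Lines that repeat a position were added up. Counts were summed by floor of start over 1000.

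After filterByExpr and TMM, 92980 windows were tested in R 4.3.3 with the quasi-likelihood fit of edgeR 4.0.16, calling those with p under 0.05 after Benjamini-Hochberg adjustment; DESeq2 1.42.0 was an alternative, as were each position counted once, a replicate block, no filter and libraries left out. The fit was tested on simulated data: over the 92980 windows 2%, 12%, 30% and 64% of windows changed 2, 3, 4 and 6-fold were recovered with 0 false calls. Other steps ran on matplotlib 3.10.9, scipy 1.17.1, pandas 2.3.3, numpy 2.4.6 and Python 3.11.15, with seeded thinning. Named windows are the 10 highest by mean EPM, the 3 longest runs, the 3 highest and lowest shares in the cross-chosen stretch, the 3 with most DMSO replicate 2 break ends, and 3 on either side of the minimums. Members, lists and measures were chosen with earlier results of these data known. The shortest stretch with 50%, the further stretch, the groups of 180, core distances in touching pairs, shared bases, equal-depth thinning and one-library choices were added after the files were seen.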

Additional observations from a re-analysis of the deposited data

How the results depend on the processing

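The number of windows that met the rule was 680 on the shifted grid, 728 without the ceiling, 722 with a ceiling in proportion on DMSO replicate 2, 988 to 999 with 1 etoposide library left out, 296 with both minimums multiplied by 1.2, and 26 with each position counted once, none of which had another within 10 kb (0%). The share with another member was 8.61% within 1 kb and 21.4% within 50 kb. The median share in the densest stretch (37.4% for 100 bp, the mean of both etoposide libraries) was 29.4% for 50 bp, 49.1% for 200 bp and 28.7% with each position counted once, and the cross-chosen share (35.4%) was 27.3%, 47.4% and 25.8%; without either library they were 36.7% to 38.1% and 34.6% to 36.2%. The DMSO share in the stretch (32.3%) was 23.6%, 45.7% and 29.9%, and 30.8% to 33.8% without either library. The density of DMSO replicate 2 was 35.8 times an even spread with each position counted once and 46.6 times without the ceiling. The etoposide share over the DMSO share (1.26) was 0.833 with each position counted once and 1.19 when also thinned to equal depth, and in windows chosen on the other etoposide library these were 0.834 and 1.17; the median log2 fold change of members reversed to -0.0852 in the first of these. The fit called 11 windows, but 37 with library size scaling, 23 with DESeq2, 20 with each position counted once, 34 with the replicate block, 0 without a filter, and 0 to 32 without 1 library (0 without etoposide replicate 2 or DMSO replicate 1); the cause was not tested. Whether replicate numbers mark pairs is not stated, and deviations of same-numbered libraries correlated at 0.0959. The low depth of DMSO, with about 9 break ends a window, limits statements on single windows there.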

Other observations

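The ceiling on DMSO replicate 1 kept out 8 windows that met both etoposide minimums. They had 359 to 6091 and 148 to 2422 break ends in the etoposide libraries, against 115 to 4174 and 28 to 566 in the DMSO libraries. The window from 58778001 on chromosome 6 was the lowest of them in both DMSO libraries, and it is the only one of the 8 that touches a member.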
